A study of Mus musculus with 12 samples.

Results

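The DNA replication licensing genes were examined in growing, germinal vesicle (GV) and ovulated (MII) oocytes of wild-type (WT) and Zar1/2-null mice. These are the 6 subunits of the MCM2-7 helicase (Mcm2, Mcm3, Mcm4, Mcm5, Mcm6 and Mcm7), the helicase loaders Cdc6 and Cdt1, the CDT1 inhibitor geminin (Gmnn) and the sliding clamp Pcna. They were taken by symbol from the deposited table, in which all 10 were listed among 23230 genes, and all 10 were among the 11502 genes that reached 1 FPKM in at least 1 library. Gmnn was lower in the null oocytes at all 3 stages, by 1.82-fold in growing, 3.0-fold in GV and 3.51-fold in MII oocytes (ratio of mean FPKM). Of all genes tested 24.4%, 40.6% and 10.3% were called lower at these stages. Cdc6 was higher in null growing and null GV oocytes, where 10.6% and 2.83% of all genes tested were. Mcm2, Mcm7 and Cdt1 were higher in null MII oocytes than in WT MII oocytes, where 21.5% of all genes tested were. The calls of Mcm2 and Cdt1 were lost without ERCC scaling, and that of Cdc6 in growing oocytes was lost with any single growing library left out. The Mcm7 call held without ERCC scaling. It was lost with no filter on low values, without WT MII library 1 and without null MII library 2. On the ERCC scale the MCM subunits of WT oocytes fell unequally between GV and MII, with 5.0% of the Mcm5 level and 48.5% of the Mcm2 level left at MII, while without that scaling Mcm2 and Mcm4 were higher at MII and Mcm5 was still lower.

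Each of the 6 groups (WT or null, at 3 stages) had 2 libraries of 10 oocytes from females of a C57BL6/ICR hybrid background. The growing oocytes came from 13.5-day-old females by the labels (the methods give a slightly younger age). The GV oocytes came from 21-day-old females 44 h after PMSG, which drives follicle growth, and the MII oocytes were taken 16 h after hCG, which triggers ovulation. The null females lacked both Zar1 and its paralogue Zar2 (listed as Zar1l) through CRISPR/Cas9 deletions present in every cell, and the WT females carried neither allele. In the study the ovulated null oocytes were described as held at metaphase I or telophase I, so the null libraries labelled MII differ from WT MII libraries in meiotic stage too, and genotype and stage cannot be told apart in them. The values were FPKM, fragments counted relative to the length of the transcript and the depth of the library, scaled by the authors with the ERCC spike-in, synthetic RNA added in equal amount to each lysate. As every library held the same number of oocytes, a scaled value stands for polyadenylated message per oocyte, relative to the WT growing library of the same replicate number. Fewer oocytes lysed and less message in each cannot be told apart in such bulk libraries.

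Licensing is the loading of MCM2-7 onto DNA before S phase, so that each origin can fire in the next S phase. The origin recognition complex, CDC6 and CDT1 load the ring-shaped hexamer, which holds each MCM subunit in equal number. Geminin binds CDT1 and blocks further loading, and PCNA, the clamp that holds the polymerases on DNA, also directs the destruction of chromatin-bound CDT1. An oocyte passes from meiosis I to meiosis II without an S phase in between, and after fertilization the zygote replicates its DNA with stored products. Transcription is largely silent from the fully grown GV stage to MII. Message stability and tail length can change the measured level there, and their part in these data was not tested.

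In proliferating cells many of these genes are transcribed through E2F elements. The promoters in the RefSeq table (build GRCm38.p6, 250 bases before to 50 bases after the transcription start) were searched on both strands for TTTCGCGC, TTTCCCGC, TTTGGCGC and TTTGCCGC. Of the 10 genes, 8 had a promoter in the table, and 6 of these 8 held at least 1 such element (2.26% of all 32851 promoters of the same length did). Mcm4 and Gmnn had no promoter in the table. The windows that hold an element are shown. Each was placed on mm9 by an exact match, runs 5′ to 3′ on the gene's strand, and has the elements in capitals.
Mcm3 chr1:20810347-20810375 (minus strand): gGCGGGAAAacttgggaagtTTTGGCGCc
Mcm5 chr8:77633246-77633275 (plus strand): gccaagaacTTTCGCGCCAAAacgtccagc
Mcm6 chr1:130256372-130256401 (minus strand): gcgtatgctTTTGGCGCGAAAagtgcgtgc
Mcm6 chr1:130256311-130256340 (minus strand): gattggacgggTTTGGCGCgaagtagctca
Mcm7 chr5:138613258-138613287 (minus strand): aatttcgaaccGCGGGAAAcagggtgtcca
Mcm7 chr5:138613077-138613106 (minus strand): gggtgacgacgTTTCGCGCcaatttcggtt
Cdc6 chr11:98769316-98769345 (plus strand): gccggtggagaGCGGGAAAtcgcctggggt
Cdt1 chr8:125091936-125091964 (plus strand): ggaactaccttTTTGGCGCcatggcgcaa
In Mcm5 and in the first Mcm6 window 2 elements on opposite strands overlapped. The elements of Mcm3 (19 bases and beyond) and Cdt1 (32 bases) and the second of Mcm7 (16 bases) lay after the annotated start. The promoters of Mcm2 and Pcna held none of these letters, nor did that of the other annotated start of Mcm7.

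In oocytes the 3′ end of a message also carries elements that set its tail length. The last 100 bases of the 3′UTR (annotated mm9 transcripts, all 10 members and 17983 genes in all) were searched for the cytoplasmic polyadenylation element (CPE, TTTTAT or TTTTAAT), to which CPEB proteins bind, and for the Pumilio element TGTANATA. A CPE was present in Mcm2, Mcm4, Mcm7, Cdt1 and Gmnn, 5 of the 10 members, and in 17.6% of all genes. The Pumilio element was present in Mcm4 and Gmnn (4.56% of all genes). At MII the members that carry a CPE differed in direction, with Gmnn lower in null oocytes, Mcm2, Mcm7 and Cdt1 higher, and Mcm4 not called (0.06). A link between the elements and these differences was not tested. The sites are shown with the elements in capitals.
Gmnn chr13:24843784-24843812 (minus strand): tatTTTTAATccgTTTTATGTAAATAgca
Mcm7 chr5:138605842-138605871 (minus strand): catgctgcacttTTTTATtctgccaataaa
Mcm2 chr6:88833485-88833513 (minus strand): tgtagtttattTTTTAATagatttgaata
Cdt1 chr8:125096973-125097001 (plus strand): ctagttttggcTTTTAATaaagtcatgta
Mcm4 chr16:15624062-15624089 (minus strand): tttcattaatTTTTATagatccttagat
Mcm4 chr16:15624008-15624037 (minus strand): attaaatcttgTGTAAATAttacaataaat
In Gmnn both forms of the CPE and a Pumilio element, which shares a base with the second CPE, stood within 23 bases. In Cdt1 the CPE overlapped the polyadenylation hexamer AATAAA. The translational control sequence, to which ZAR proteins bind in the frog (ATTATCT, the form ATTGTCT, the form TTTATCT and the form TTTGTCT), was in none of the 10 windows and in 5.22% of all genes. A match here is a run of letters and was not tested as a binding site.

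The whole series set limits for these values. The ERCC factors recovered from the deposited digits were 1 in WT growing libraries, 0.533 to 0.862 in the other growing and GV libraries and 0.225 to 0.283 in MII libraries. Zar1l fell from 642 ± 3.21 FPKM in WT to 15.3 ± 3.04 FPKM in null growing oocytes (SD, n = 2 libraries each) and was lower in null oocytes at every stage. Zar1, whose null allele still gives a message, was lower in null growing and null GV oocytes but higher in null MII oocytes (192 ± 2.80 against 78.0 ± 7.97 FPKM). All 12 oocyte markers were at 1 FPKM or more in 5 of the 6 groups and 11 of them in WT MII oocytes. The 15 granulosa and cumulus markers summed to at most 35.9 FPKM in any library, while the oocyte markers summed to at least 1416 FPKM. Among the granulosa markers Ptx3 was listed at 0 in all 12 libraries and Amh did not exceed 0.0317 FPKM. Others were present, with Cyp19a1 at up to 19.0, Nr5a2 11.5, Inha 3.11, Kitl 2.58 and Gja1 2.45 FPKM. In growing oocytes Cyp19a1 averaged 17.9 FPKM in WT and 5.13 FPKM in null, and Nr5a2 5.91 and 9.83 FPKM. The sum of the 15 markers was 31.0 to 35.9 FPKM in WT and 14.8 to 23.1 FPKM in null growing libraries. It was 17.6 to 19.9 and 15.7 to 17.5 FPKM at GV, and 5.14 to 5.53 and 7.26 to 8.49 FPKM at MII. Theca, immune and oviduct markers summed to at most 1.00, 3.42 and 30.2 FPKM, and nearly all of the oviduct sum was Cdh1, which oocytes express too. The part of these cells in any result was not tested.

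In WT GV oocytes the licensing messages covered a range of levels from Pcna to Cdc6. Pcna had 189 ± 42.4 FPKM and Gmnn 165 ± 35.0 FPKM, and their libraries overlapped. Mcm4 (35.1 FPKM), Mcm6 (34.6 FPKM) and Cdt1 (33.1 FPKM) followed, each overlapping with the next. Mcm5 had 23.1 ± 0.429 FPKM, above Mcm2 with 20.4 ± 1.54 FPKM. Mcm7 had 18.9 ± 2.15 FPKM, with libraries that overlapped those of Mcm2. Mcm3 with 12.3 ± 0.763 FPKM and Cdc6 with 8.96 ± 0.866 FPKM were the lowest, and did not overlap. Pcna and Gmnn stood above 95.2% and 94.5% of the genes tested, and Cdc6 above 55.1%. At MII the order had changed, with Gmnn (127 FPKM) and Pcna (109 FPKM) still the highest of the members and Mcm5 (1.16 FPKM) and Cdc6 (1.10 FPKM) the lowest.

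**Figure D1:**
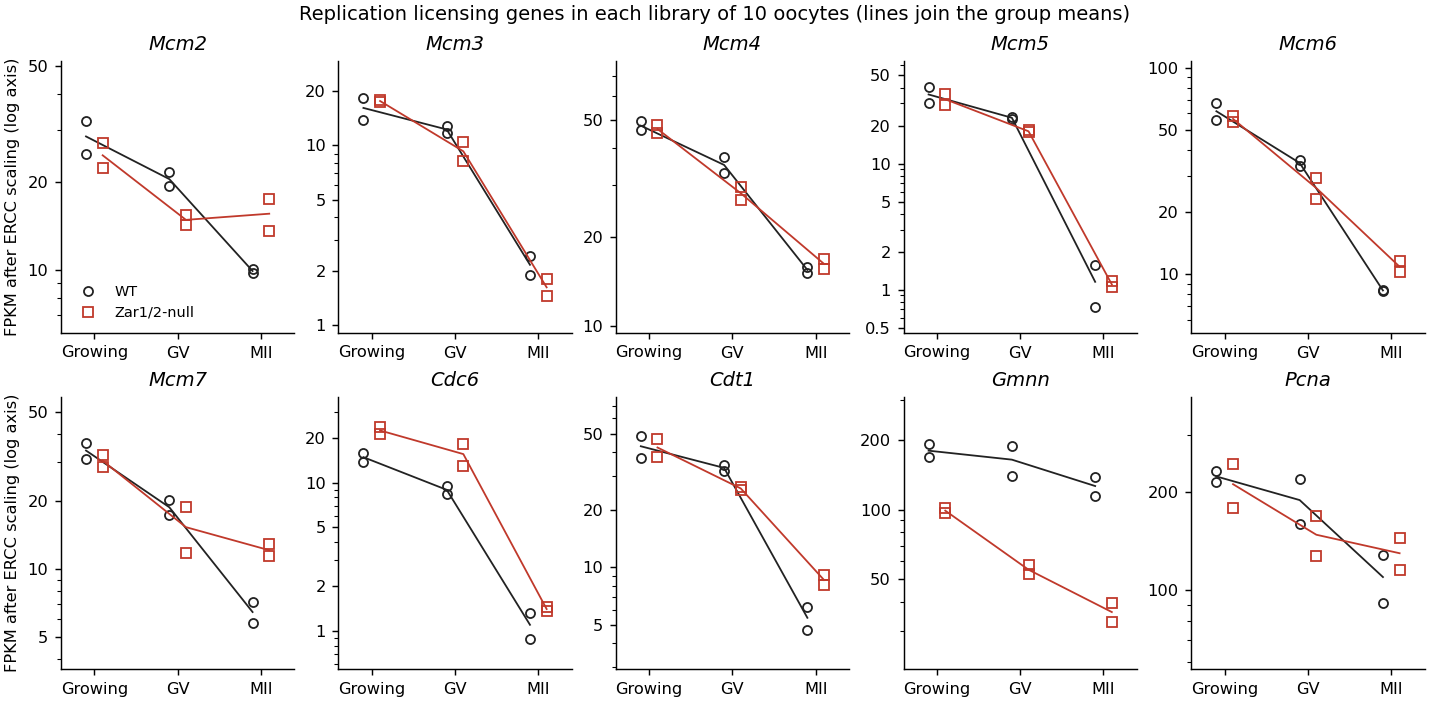
FPKM after ERCC scaling (log axis) of the 10 licensing genes in each of the 12 libraries, by stage, with WT as black circles, Zar1/2-null as red squares and lines through the group means of 2 libraries. Gmnn is lower in null oocytes at all 3 stages (57.4 and 52.6 against 189.6 and 140.2 FPKM at GV), and Mcm3, Mcm5, Cdc6 and Cdt1 fall most between GV and MII on this ERCC scale.

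Geminin (Gmnn, chr13:24843714-24853792, minus strand, mm9) was the member that differed most between the genotypes. In growing oocytes Gmnn was at 192 and 169 FPKM in WT and at 101 and 97.1 FPKM in null libraries. At GV it had 189.6 and 140.2 FPKM in WT and 57.4 and 52.6 FPKM in null oocytes. At MII it had 139 and 114 FPKM in WT and 39.4 and 32.7 FPKM in null oocytes. At no stage did the libraries of the genotypes overlap, and every null library lay below every WT library of any stage. The log2 fold change of null against WT was −0.85 ± 0.18 (SE) in growing oocytes (adjusted p = 0.00445), −1.55 ± 0.18 at GV (adjusted p = 0.000115) and −1.78 ± 0.18 at MII (adjusted p = 1.73e-05). It passed the test in all 21 alternatives at each stage, the libraries left out in turn and the scalings without ERCC included. At MII Gmnn was the only member over 3-fold lower in mean FPKM, a rule that 1.32% of the genes tested met, and no member was over 3-fold lower or higher in growing or GV oocytes or over 3-fold higher at MII. The effect at GV differed from that in growing oocytes by −0.70 ± 0.26 on the log2 scale, which did not pass the test (adjusted p = 0.0983) except without WT GV library 2 (−0.91, adjusted p = 0.0488) and in 2 of the other alternatives.

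In WT oocytes Gmnn was also the member best kept through maturation. Its mean fell from 165 to 127 FPKM between GV and MII, which left 76.9% and was not called (log2 fold change −0.37, 95% interval −0.77 to 0.04, adjusted p = 0.0740). The call depended on single libraries, since without WT GV library 2 the change was −0.58 (adjusted p = 0.0169) and without WT MII library 1 it was −0.51 (adjusted p = 0.0499). The direction in WT rested on the ERCC scaling. Without it Gmnn was called higher at MII than at GV (1.38, adjusted p = 6.68e-06), and under median scaling the value was 2.08. On the ERCC scale 70.3% of the growing level of Gmnn was left at MII in WT and 36.4% in null oocytes. In null oocytes Gmnn fell both between growing and GV (−0.84 ± 0.18, adjusted p = 0.00246) and between GV and MII (−0.60 ± 0.18, adjusted p = 0.0125). The second of these calls was lost without null GV library 1 (−0.54, adjusted p = 0.0603) or null MII library 2 (−0.47, adjusted p = 0.0918), and both depended on the ERCC scaling (without it −0.29, adjusted p = 0.141, and 0.44, adjusted p = 0.0214).

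The helicase loaders differed from each other. Cdc6, the ATPase that brings MCM2-7 to origins, had 13.8 and 15.9 FPKM in WT and 23.6 and 21.4 FPKM in null growing oocytes. At GV it had 9.57 and 8.35 FPKM in WT and 13.0 and 18.2 FPKM in null oocytes. At MII it was near 1 FPKM in every library, with 0.890 and 1.32 FPKM in WT and 1.45 and 1.37 FPKM in null oocytes. The null libraries lay above the WT libraries at each stage, with a log2 fold change of 0.57 ± 0.18 in growing oocytes (adjusted p = 0.0275), 0.72 ± 0.18 at GV (adjusted p = 0.00751) and 0.20 ± 0.18 at MII (adjusted p = 0.452). The call in growing oocytes was lost without WT library 1 (0.47, adjusted p = 0.163), WT library 2 (0.67, adjusted p = 0.0551), null library 1 (0.50, adjusted p = 0.117) or null library 2 (0.63, adjusted p = 0.0738), and adjusted p lay between 0.00507 and 0.163 over the 21 alternatives. At GV it was lost without null library 2 (0.49, adjusted p = 0.0520), and adjusted p lay between 0.000507 and 0.0566.

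CDT1 is the loader that geminin inhibits, and its message did not follow that of Cdc6. In growing oocytes Cdt1 had 37.4 and 48.4 FPKM in WT and 37.6 and 46.9 FPKM in null libraries, which overlapped. At GV it had 31.9 and 34.3 FPKM in WT and 25.2 and 26.4 FPKM in null oocytes, a difference of −0.34 ± 0.18 that did not pass the test (adjusted p = 0.136). At MII it had 4.70 and 6.18 FPKM in WT and 8.08 and 9.08 FPKM in null oocytes. Here the null libraries were the higher ones, by 0.58 ± 0.18 (adjusted p = 0.0278). The call at MII was lost without WT MII library 1 (0.41, adjusted p = 0.200), null MII library 1 (0.65, adjusted p = 0.0650) or null MII library 2 (0.50, adjusted p = 0.146), and without ERCC scaling (0.41, adjusted p = 0.132), with a range of adjusted p from 0.00769 to 0.207. The annotation also holds a gene model on the same strand, Gm20388, that spans all 5114 bases of Cdt1, and reads of both cannot be told apart.

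Ratios of genes within a library do not depend on the ERCC factor. Gmnn over Cdt1 was 5.14 and 3.48 in WT growing, 5.95 and 4.09 in WT GV and 29.6 and 18.5 in WT MII libraries. In null oocytes it was 2.69 and 2.07, 2.28 and 1.99, and 4.88 and 3.61. The null libraries lay below the WT libraries of their stage each time, and the WT MII libraries lay above all others. Cdc6 over Cdt1 was 0.368 and 0.329 in WT and 0.626 and 0.457 in null growing libraries, and 0.300 and 0.243 in WT and 0.514 and 0.689 in null GV libraries. At MII it was 0.189 and 0.213 in WT and 0.180 and 0.151 in null libraries, so that the order of the genotypes had turned. There Cdc6 was near 1 FPKM in every library, and the null libraries were the higher ones for both Cdc6 and Cdt1. These ratios are given without a test, since 2 against 2 libraries cannot give an exact two-sided permutation p below 0.333.

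**Figure D2:**
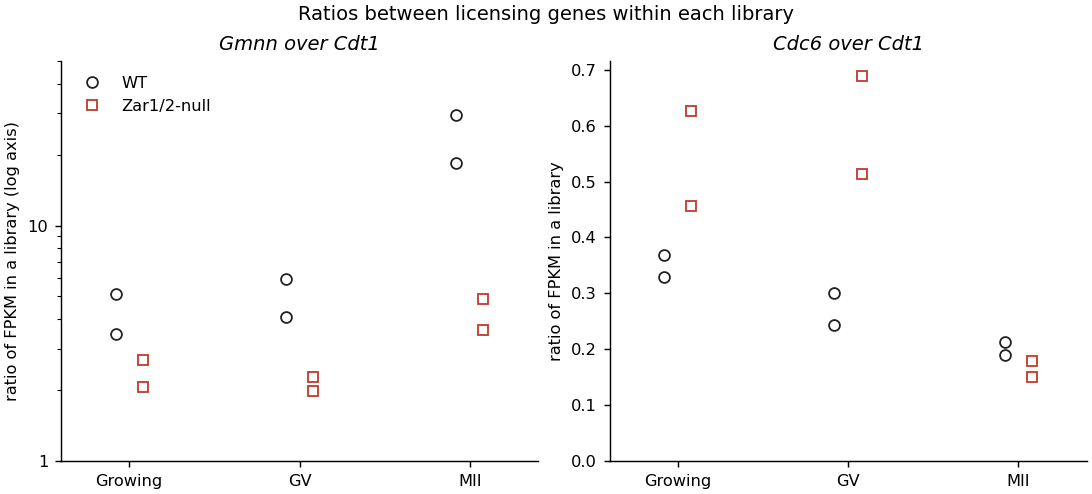
Ratio of Gmnn to Cdt1 (left, log axis) and of Cdc6 to Cdt1 (right) in FPKM within each library, by stage, with WT as black circles and Zar1/2-null as red squares. The WT MII libraries have the highest Gmnn to Cdt1 ratios (29.6 and 18.5), and the null growing and GV libraries have the highest Cdc6 to Cdt1 ratios (0.457 to 0.689).

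The 6 MCM subunits form a hexamer with equal parts, but their messages were neither equal nor lost in step. In WT growing oocytes Mcm6 was the highest (55.8 and 67.2 FPKM) and Mcm3 the lowest (13.9 and 18.4 FPKM), 4.0 and 3.66 times apart. In WT MII oocytes Mcm4 was the highest (15.2 and 15.8 FPKM) and Mcm5 the lowest (0.728 and 1.58 FPKM), 20.8 and 9.98 times apart. Summed over the 6 genes, the level was 223 ± 30.1 FPKM in WT growing, 144 ± 3.99 FPKM in WT GV and 43.5 ± 2.65 FPKM in WT MII oocytes. In null oocytes the sums were 208 ± 0.312, 112 ± 12.6 and 57.5 ± 1.59 FPKM. Mcm5 made up 14.1% to 17.2% of the sum in the 8 growing and GV libraries and 1.75% to 3.49% in the 4 MII libraries. Mcm2 made up 10.7% to 15.2% before MII and 22.2% to 29.8% at MII. For every subunit but Mcm7 the shares at MII lay outside those before MII, above them for Mcm2 and Mcm4 and below them for Mcm3, Mcm5 and Mcm6.

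**Figure D3:**
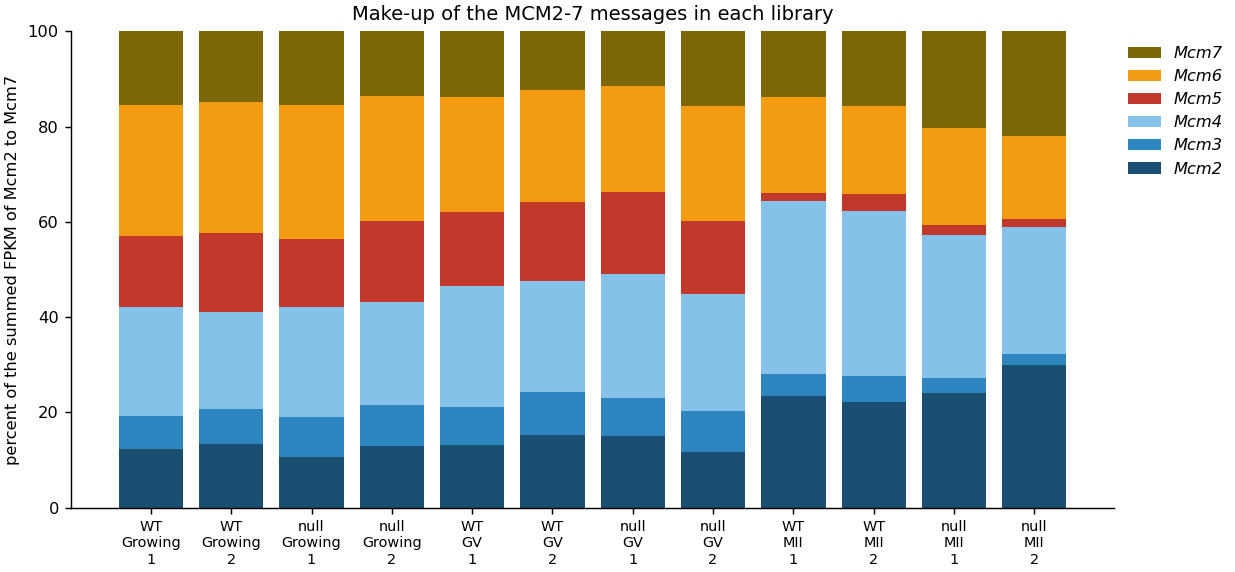
Stacked bars of the percent that each MCM subunit gene contributes to the summed FPKM of Mcm2 to Mcm7 in each of the 12 libraries, in order of stage and genotype. The Mcm5 part (red) narrows from 14.1% to 17.2% before MII to 1.75% to 3.49% at MII, and the Mcm7 part at MII is 13.9% and 15.7% in WT and 20.2% and 22.0% in null libraries.

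Mcm5, Mcm3 and Mcm6 were the subunits lost most at MII on the ERCC scale. Mcm5 went from 22.8 and 23.4 FPKM at GV to 0.728 and 1.58 FPKM at MII in WT oocytes, a log2 fold change of −3.51 ± 0.20 (adjusted p = 1.89e-08), and it fell in each of the 21 alternatives. In null oocytes it went from 17.7 and 18.4 FPKM to 1.16 and 1.04 FPKM (−3.18 ± 0.20, adjusted p = 9.99e-08). Mcm3 went from 11.7 and 12.8 FPKM to 1.92 and 2.43 FPKM in WT and from 8.17 and 10.4 FPKM to 1.8 and 1.46 FPKM in null oocytes. The added 1 FPKM understates the loss of these low messages, so the share of the mean FPKM left is also given. It was 5.0% in WT and 6.11% in null oocytes for Mcm5, 17.7% and 17.6% for Mcm3, and 24.1% and 41.6% for Mcm6. Mcm6 had 8.33 and 8.37 FPKM in WT and 11.5 and 10.2 FPKM in null MII libraries, which did not overlap, but the difference was not called (0.34 ± 0.16, adjusted p = 0.128).

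On the ERCC scale Mcm2 and Mcm7 were kept better in null than in WT oocytes between GV and MII. Mcm2 had 19.3 and 21.5 FPKM in WT GV and 9.73 and 10.1 FPKM in WT MII libraries, and 15.4 and 14.2 FPKM in null GV and 13.6 and 17.5 FPKM in null MII libraries. Its null libraries lay below the WT libraries at GV and above them at MII. At MII the difference was 0.59 ± 0.18 (adjusted p = 0.0237). This call was lost without WT MII library 1 (0.57, adjusted p = 0.104), WT MII library 2 (0.62, adjusted p = 0.0788) or null MII library 2 (0.42, adjusted p = 0.190), and without ERCC scaling (0.39, adjusted p = 0.170), with a range of adjusted p from 0.012 to 0.282. Mcm7 had 20.4 and 17.3 FPKM in WT GV and 5.78 and 7.14 FPKM in WT MII libraries, and 11.8 and 19.0 FPKM in null GV and 11.4 and 12.9 FPKM in null MII libraries. At MII its null libraries were 1.88-fold higher on average, with a log2 fold change of 0.82 ± 0.21 (adjusted p = 0.0102). This held without ERCC scaling and was lost without WT MII library 1 (0.69, adjusted p = 0.0863) or null MII library 2 (0.74, adjusted p = 0.0702). Adjusted p lay between 0.00251 and 0.0863 over the alternatives. Mcm7 shares 421 bases with Ap4m1 and 64 bases with Cops6 on the other strand, and reads of overlapping genes cannot be told apart in a library that does not mark strand. Mcm4, the subunit with the highest level in WT MII oocytes, had 15.2 and 15.8 FPKM in WT and 16.9 and 15.6 FPKM in null MII libraries, which overlapped.

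Pcna, the clamp, was the most abundant member in all groups but WT MII. It had 214 to 232 FPKM in WT and 178 to 245 FPKM in null growing libraries, 159 to 219 and 127 to 169 FPKM at GV, and 91.3 to 128 and 115 to 144 FPKM at MII. The libraries of the genotypes overlapped at each stage, and no difference between the genotypes passed the test (log2 fold changes of −0.10, −0.35 and 0.25, with 95% intervals from −0.88 to 0.78 over the 3 stages). Annotated Pcna pseudogenes lie on chromosomes 19 and X. Since the authors kept uniquely mapped reads, reads that fit Pcna and a pseudogene equally well were left out, and the level of Pcna may be understated by them.

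The null against WT comparisons called few members. In growing oocytes 1 of 10 was called higher (Cdc6), where 10.6% of all genes tested were, and 1 was called lower (Gmnn), where 24.4% were. At GV 1 was called higher (Cdc6) against 2.83% of all genes and 1 lower (Gmnn) against 40.6%. At MII 3 were called higher (Mcm2, Mcm7 and Cdt1) against 21.5% of all genes and 1 lower (Gmnn) against 10.3%. The counts at MII depended on the scaling, with 1 member called higher (Mcm7) and 2 lower (Gmnn and Mcm3) both without ERCC scaling and under median scaling. No share of all genes called is given for those scalings. The median log2 fold change of the members was −0.10 in growing, −0.35 at GV and 0.23 at MII, beside −0.16, −0.38 and 0.06 for all genes tested. At GV the 8 members other than Gmnn and Cdc6 lay between −0.44 and −0.31, near the median of all genes, and none of them was called. These directions rested on the ERCC scaling, since the median over the members at GV was 0.09 without it and 0.17 under median scaling (all genes −0.03 and 0.04), where 7 and 8 of the 10 members turned from lower to higher and none of those was called. In growing oocytes 7 members turned in the same way under each of these scalings, and none was called. Without null GV library 2, Mcm6 (−0.57, adjusted p = 0.0245) and Mcm7 (−0.63, adjusted p = 0.0272) were called lower at GV too.

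**Figure D4:**
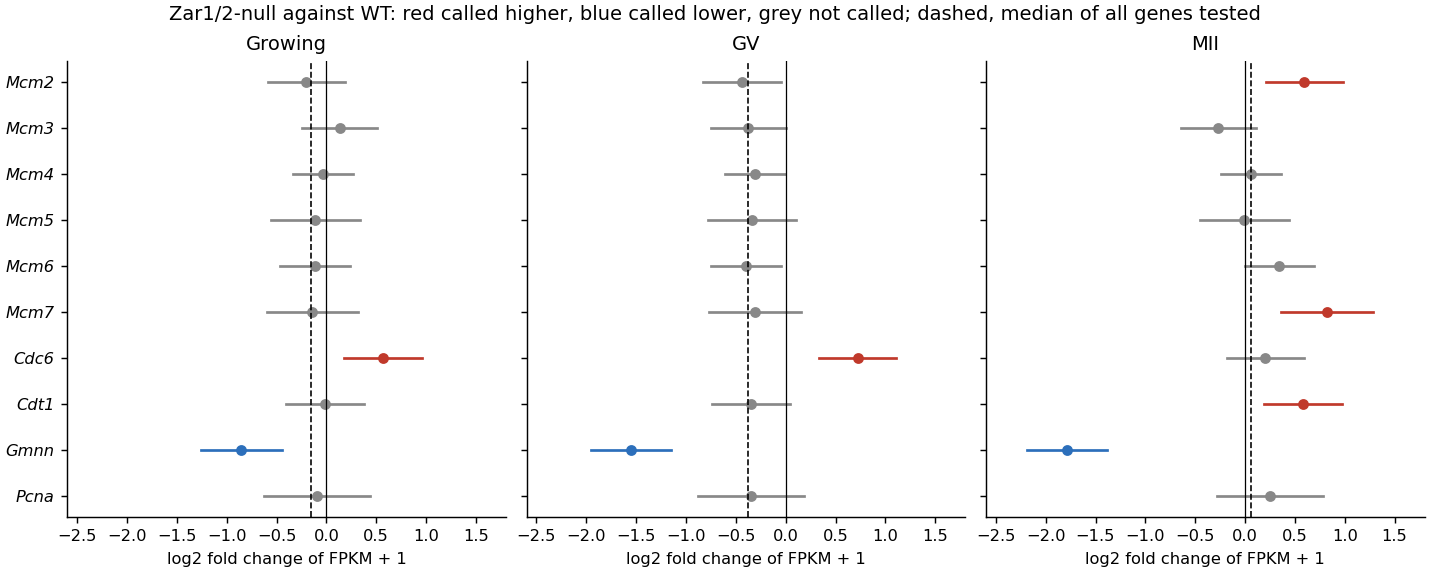
Log2 fold change of FPKM + 1 (horizontal axis) of Zar1/2-null against WT for each licensing gene in growing, GV and MII oocytes, with 95% intervals from limma over 12 libraries, coloured by call (red higher, blue lower, grey not called). The dashed line is the median of all genes tested (−0.16, −0.38 and 0.06), and Gmnn lies below it at each stage with −0.85, −1.55 and −1.78.

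Maturation was compared within each genotype. In WT oocytes 9 of 10 members were called lower at MII than at GV and 0 higher, where 93.4% and 0.104% of all genes tested were. In null oocytes 7 of 10 were called lower and 0 higher, where 68.7% and 0.209% were, and Mcm2, Mcm7 and Pcna were not called (0.06, −0.28 and −0.18). The median over the members was −1.67 in WT and −0.97 in null oocytes, beside −1.28 and −0.72 for all genes. These directions rested on the ERCC scaling, which lowered the median of all genes in WT from −0.43 without it to −1.28. Without ERCC scaling, 4 members were called lower (Mcm3, Mcm5, Cdc6 and Cdt1) and 4 higher (Mcm2, Mcm4, Gmnn and Pcna) in WT oocytes, and 3 lower (Mcm3, Mcm5 and Cdc6) and 4 higher (Mcm2, Mcm7, Gmnn and Pcna) in null oocytes. Under median scaling the counts were 2 lower and 6 higher in WT and 3 lower and 5 higher in null oocytes. The median of all genes was then 0.27 in WT and 0.23 in null oocytes. Shares of all genes called without ERCC scaling or under median scaling are not given, so these counts have none beside them. The call of Pcna in WT oocytes (−0.78 ± 0.24, adjusted p = 0.00900) was lost without WT GV library 1 (−0.55, adjusted p = 0.0952) or WT MII library 2 (−0.54, adjusted p = 0.0922). In null oocytes Mcm7 was called without null GV library 1 (−0.60, adjusted p = 0.0184). Mcm5 and Cdc6 fell under each of the 3 scalings in both genotypes.

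**Figure D5:**
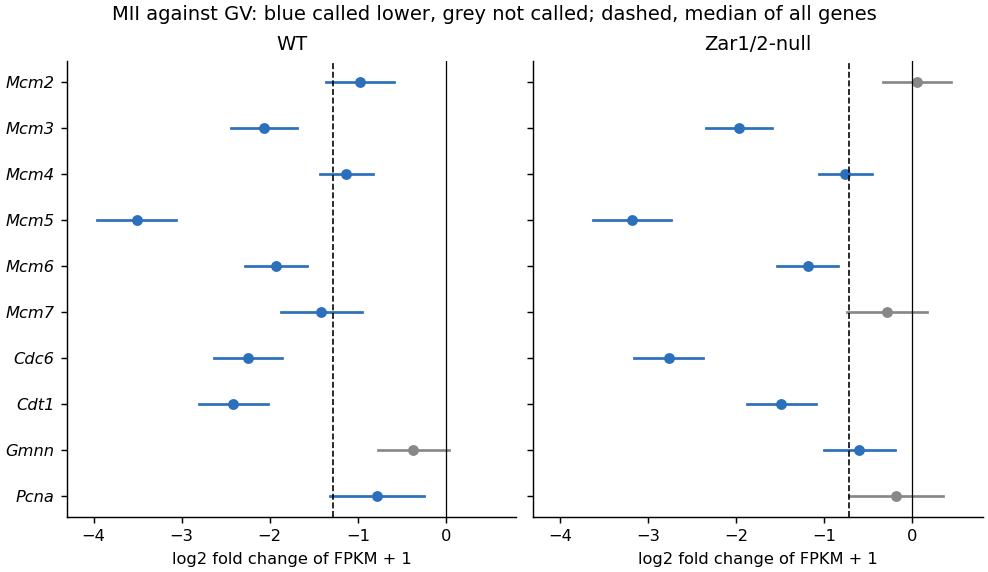
Log2 fold change of FPKM + 1 (horizontal axis) at MII against GV for each licensing gene in WT (left) and Zar1/2-null oocytes (right), with 95% intervals from limma, blue where called lower and grey where not called. The dashed line is the median of all genes tested (−1.28 in WT, −0.72 in null), and the order runs from Mcm5 (−3.51 and −3.18) to Gmnn in WT (−0.37) and Mcm2 in null oocytes (0.06). Without ERCC scaling the values of Mcm2, Mcm4, Mcm7, Gmnn and Pcna are above 0 in both genotypes.

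Whether the null effect changed from GV to MII was tested as an interaction. It was called for 4 members, all with a higher value at MII, where 33.9% of all genes were called in that direction and 0.643% in the other. Mcm7 changed by 1.13 ± 0.29 (adjusted p = 0.0131), Mcm2 by 1.03 ± 0.25 (adjusted p = 0.00910), Cdt1 by 0.92 ± 0.25 (adjusted p = 0.0164) and Mcm6 by 0.74 ± 0.22 (adjusted p = 0.0255). The median over the members (0.49) was close to that over all genes (0.48). Without ERCC scaling none of these 4 was called, and Cdc6 (−1.06, adjusted p = 0.0118) and Gmnn (−0.94, adjusted p = 0.00697) were called in the other direction. The median of all genes was then 0.03, and the share of all genes called is not given. Mcm2 was called with any single library left out. Without WT MII library 1 the others were not called (Mcm7 1.00, adjusted p = 0.0584, Cdt1 0.76, adjusted p = 0.0710, Mcm6 0.74, adjusted p = 0.0680). Mcm7 was also lost without WT GV library 1 (1.02, adjusted p = 0.0601) and Cdt1 without null MII library 2 (0.85, adjusted p = 0.0564). Mcm6 was lost without any of WT GV library 1, WT MII library 2, null GV library 1 and null MII library 1 (0.58 to 0.75, adjusted p from 0.0562 to 0.0890). The null against WT comparisons at GV and MII and the maturation of each genotype use the same 8 libraries, so their values are not independent. From growing to GV the interaction was called for 0 of 10 members (by limma, with 1 of 10, Gmnn, at an unadjusted p under 0.05), where 2.58% of all genes were called higher and 11.3% lower.

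Growth was compared between growing and GV oocytes of each genotype. On the ERCC scale, in WT oocytes 5 of 10 members were called lower (Mcm4, Mcm5, Mcm6, Mcm7 and Cdc6) and 0 higher, where 28.7% and 2.77% of all genes were. In null oocytes 9 of 10 were called lower, all but Pcna, and 0 higher, where 55.9% and 4.76% of all genes were. Mcm6 had the largest change in both genotypes (−0.81 ± 0.16 in WT and −1.09 ± 0.16 in null oocytes). The medians over the members were −0.44 and −0.75, beside −0.29 and −0.50 for all genes. Without ERCC scaling 0 members were called in WT and 1 in null oocytes (Mcm6). The medians of all genes were then 0.02 in WT and −0.08 in null oocytes, and the shares called are not given. In null oocytes Mcm2, Cdc6 and Cdt1 were lost without null growing library 2, and Cdc6 also without null growing library 1 or null GV library 1 (−0.29, adjusted p = 0.197). Without WT growing library 2 none of the 5 was called in WT (Mcm6 −0.68, adjusted p = 0.0501), and without WT GV library 2 only Mcm6 was. Mcm4 was lost without WT growing library 1 (−0.48, adjusted p = 0.0790), and Mcm5, at an adjusted p of 0.0497, was lost also without WT GV library 1 and without any of the 6 null libraries (adjusted p from 0.0575 to 0.136).

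The other genes of the replication pathway were counted over 11 lists of 105 symbols, of which 104 were in the table and 98 were tested. Together 4 were called higher and 23 lower in null growing oocytes, where 10.6% and 24.4% of all genes tested were. At GV 1 was higher and 40 were lower, against 2.83% and 40.6% of all genes. At MII 25 were higher and 12 lower, against 21.5% and 10.3% of all genes. The medians over these 98 genes (−0.17, −0.39 and 0.04) were close to those of all genes. The split of these calls rested on the ERCC scaling, since without it (an alternative chosen after seeing the data) the growing stage had 11 higher and 5 lower, GV 7 and 10, and MII 24 and 29, and under median scaling 7 and 5, 9 and 10, and 19 and 40. By the rule for named genes, 20 values were taken in growing oocytes, 28 at GV and 15 at MII, of which 7, 11 and 14 kept their direction and their call under both scalings. Of the 6 subunits of the origin recognition complex, which marks origins, 4 were lower in null growing oocytes, 1 at GV and 2 at MII, and none was higher, where 24.4%, 40.6% and 10.3% of all genes tested were lower. Without ERCC scaling these counts were 1, 1 and 4, and under median scaling 0, 1 and 5. No share of all genes is given for those scalings, here or for all lists together. Orc4 (−0.78), Orc5 (−0.74) and Orc6 (−0.70) had the largest changes in growing oocytes, and none of these 3 was called under both of the other scalings. Orc1, the subunit that recruits CDC6, had 21.0 and 16.7 FPKM in WT and 6.82 and 9.73 FPKM in null GV libraries (−1.11 ± 0.18, adjusted p = 0.000806).

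Of the 15 tested genes that activate the loaded helicase, 6 were lower in null growing oocytes, 9 at GV and 3 at MII. Among all genes tested 24.4%, 40.6% and 10.3% were lower. At MII 4 of the 15 were higher, where 21.5% of all genes tested were. Without ERCC scaling 2, 3 and 6 were lower and 3 were higher at MII, and under median scaling 2, 3 and 7 were lower and 2 were higher at MII. The shares of all genes above are for the ERCC scale only. DBF4 and CDC7 form the kinase that phosphorylates MCM2-7. Dbf4 was lower at all 3 stages and under each scaling, with 191 and 183 FPKM in WT and 108 and 87.5 FPKM in null growing libraries (−0.94 ± 0.20, adjusted p = 0.00459). Cdc7 had 8.29 and 7.16 FPKM in WT and 1.43 and 1.54 FPKM in null GV libraries (−1.81 ± 0.12, adjusted p = 6.34e-06) and was lower under each scaling. Timeless (−0.90) and Gins3 (−0.68) in growing oocytes and Topbp1 (−1.19) at GV were lower too, and Donson (0.67) was higher at MII, of which Gins3 was not called under the other scalings. Of the 8 genes for CDT1 turnover, Dtl, which encodes the receptor of the ligase that destroys CDT1 on PCNA, was lower at all 3 stages, though in growing oocytes not without ERCC scaling (−0.30, adjusted p = 0.132) or under median scaling (−0.36, adjusted p = 0.0758). It had 8.02 and 8.78 FPKM in WT and 2.90 and 3.18 FPKM in null MII libraries (−1.22 ± 0.15, adjusted p = 6.34e-05). Rbx1, the RING subunit of the same ligase, went the other way at MII, with 63.7 and 52.0 FPKM in WT and 123 and 96.0 FPKM in null libraries (0.91 ± 0.19, adjusted p = 0.00288), and Ddb1, another subunit, was lower at GV (−0.88), called on the ERCC scale only.

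Genes that act after licensing included some that were higher and some that were lower at MII. At MII 21.5% of all genes tested were higher and 10.3% lower in null oocytes on the ERCC scale. No such shares are given for the other scalings. Of 9 genes for deoxynucleotide supply, 4 were higher and 1 was lower (4 and 3 under each of the other scalings). Tk1, thymidine kinase, had 2.86 and 2.44 FPKM in WT and 17.7 and 14.5 FPKM in null libraries (2.22 ± 0.17, adjusted p = 1.14e-06), and was higher in null growing oocytes too (0.49). Rrm2b, a ribonucleotide reductase subunit, was lower at all 3 stages, with 26.6 and 25.8 FPKM in WT and 11.8 and 12.6 FPKM in null MII libraries (−1.04 ± 0.15, adjusted p = 0.000282). Dctd was higher at MII (0.97), and Rrm2 lower at GV (−0.72), called on the ERCC scale only. Of 9 genes for chromatin assembly behind the fork, 5 were higher and 1 was lower at MII (5 and 2 without ERCC scaling, 3 and 2 under median scaling). Hells, a chromatin remodeller, had 25.7 and 23.3 FPKM in WT and 5.68 and 6.21 FPKM in null MII libraries (−1.88 ± 0.14, adjusted p = 1.36e-06), while Uhrf1, which brings DNMT1 to new DNA, had 23.7 and 26.5 against 47.7 and 48.9 FPKM (0.92 ± 0.16, adjusted p = 0.000860). Dnmt1, the maintenance DNA methyltransferase, was lower at GV (−0.75), called on the ERCC scale only, and higher at MII (0.88), and Nasp, a histone chaperone, was lower at GV (−0.54), called on the ERCC scale only. In growing oocytes Ccne1 (3.15 and 2.90 FPKM in WT, 8.0 and 10.7 FPKM in null) and its partner Cdk2 (10.2 and 12.4 FPKM in WT, 20.5 and 19.7 FPKM in null) were higher in null libraries, by 1.35 ± 0.25 (adjusted p = 0.00179) and 0.78 ± 0.17 (adjusted p = 0.00479). At GV Cdk2 was lower in null libraries (5.95 and 4.94 FPKM in WT, 1.40 and 2.15 FPKM in null), by −1.23 ± 0.17 (adjusted p = 0.000312). Cdkn1b, an inhibitor of CDK2, was higher in null GV libraries (0.53). These calls held under each scaling.

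In the remaining lists several counts changed with the scaling. On the ERCC scale 21.5% of all genes tested were higher and 10.3% lower at MII. Shares for the other scalings are not given, so counts under them have none beside them. Of 12 polymerase and primase genes 3 were higher and 1 was lower at MII, against 4 and 3 without ERCC scaling and 3 and 4 under median scaling. Pole3 was higher at MII (1.07) and Prim2 lower (−0.59), and Pola1 was lower in growing oocytes (−0.79), each under every scaling. Of 9 clamp loader genes 2 were higher and 1 was lower at MII, against 2 and 1 without ERCC scaling and 2 and 3 under median scaling. Rfc1, the large subunit of the clamp loader, was lower at MII (−0.82) under every scaling. Of 12 genes for single-strand binding and lagging-strand work 2 were higher and 2 lower at MII, against 2 and 3, and 2 and 5. Ssbp1, the mitochondrial single-strand binding protein, was lower at GV (−1.75) under every scaling. Of 9 tested E2F and pocket protein genes 2 were higher and 0 lower at MII, against 1 and 2, and 0 and 5. E2f2 was lower at GV (−1.05) under every scaling, and Tfdp1 was higher at MII (0.75) except under median scaling. Of 5 tested S-phase kinase and cyclin genes 1 was higher and 0 were lower at MII, against 1 and 2 under each of the other scalings. Of 4 tested other MCM genes none was called at MII (by limma), against 2 lower without ERCC scaling and 3 under median scaling, and Mcmbp (−0.62), Mcm10 (−0.49) and Mcm8 (−0.42) were called lower at GV on the ERCC scale only. The other genes that the rule named were called lower on the ERCC scale only. In growing oocytes these were Pole4 (−0.64), Rfc1 (−0.62), Atad5 (−0.59), Top2a (−0.68), Ssbp1 (−0.55), Fen1 (−0.47), E2f5 (−0.55) and Hells (−0.62). At GV these were Prim2 (−0.82), Pola1 (−0.60), Pole4 (−0.58), Rfc1 (−0.81), Rfc4 (−0.81), Dscc1 (−0.72), Top2a (−0.82), Fen1 (−0.78), E2f5 (−0.77) and E2f1 (−0.55).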

How the data were processed

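For each group 2 libraries of 10 oocytes were made by Smart-seq2, whose oligo-dT priming counts messages with a poly(A) tail. The authors trimmed reads to 50 bases, mapped them to mm9 with TopHat2 2.1.1, kept unique alignments and computed FPKM over UCSC gene models with Cufflinks 2.2.1, then scaled each library with its ERCC share. The deposited FPKM table holds no counts, so the depth behind a value is unknown and no counting interval is given. Cufflinks can list a gene at 0 after a failed estimate. The ERCC factor of each library was recovered as the number that returns its values to 6 significant digits.

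Groups and replicate numbers came from the sample titles. Nothing says that the 2 libraries of a group came from separate females, so p-values measure the spread between these libraries, which may be technical. A gene entered the tests if any library reached 1 FPKM (11502 genes). Values were modelled as log2(FPKM + 1) in limma 3.58.1 (R 4.3.3), with a term per group over all 12 libraries, eBayes with an intensity trend, and Benjamini-Hochberg adjustment over all genes kept, with a threshold of 0.05. Fold changes are on that scale and understate changes of low genes. Shares of all genes called are given for the ERCC-scaled fit only. The fit was tested on simulated data. Shares left and folds of means use FPKM alone. All 10 members are named, and from each pathway list up to 3 genes per null against WT comparison with the largest change among those called, with a mean of 5 FPKM or more in the group where it is higher and no overlap of libraries. The members and lists were chosen with earlier results of these data known. Alternatives were no ERCC scaling, median scaling, factors averaged within a group, a pseudocount of 0.1 FPKM, other filters, a replicate block, the 4 libraries of a comparison alone, no intensity trend, and each library left out.

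Positions are mm9 (GENCODE M1). Promoters are RefSeq's, and 3′ ends are those of the transcript with the longest coding region.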

Additional observations from a re-analysis of the deposited data

Results flagged for a closer look

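The null effect differed between GV and MII oocytes for 4 licensing genes, by the interaction term of the limma fit. Against GV, the effect at MII was higher by 1.13 for Mcm7 (adjusted p = 0.0131), by 1.03 for Mcm2 (adjusted p = 0.00910), by 0.92 for Cdt1 (adjusted p = 0.0164) and by 0.74 for Mcm6 (adjusted p = 0.0255), all on the log2 scale. The median of this difference over all genes tested was 0.48, and 33.9% of all genes were called in the same direction. Without ERCC scaling the values were 0.54, 0.40, 0.32 and 0.10 and none of the 4 was called. With 2 libraries per group no library could be examined as an outlier.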

How the results depend on the processing

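Of 1870 member values recomputed under 21 alternatives, 1635 kept their direction and their side of the threshold, and 26 reversed, all under no ERCC scaling or median scaling and 0 in a comparison of null with WT. Another 76 values, called under neither setting, changed sign. Of these 76, 24 arose without ERCC scaling, 30 under median scaling, 21 with a library left out and 1 with a pseudocount of 0.1 FPKM. Those from the scalings in the comparisons of null with WT were as follows. Without ERCC scaling they were 7 of 10 members in growing, 7 at GV and 1 at MII, and under median scaling 7, 8 and 3. The 26 reversed values were these. Without ERCC scaling, WT MII against GV gave 0.69 for Mcm2, 0.57 for Mcm4, 0.20 for Mcm7, 1.38 for Gmnn and 0.96 for Pcna, and null MII against GV gave 0.26 for Mcm4, 0.74 for Mcm7, 0.44 for Gmnn and 0.88 for Pcna. Under median scaling, WT MII against GV gave 1.39 for Mcm2, 0.0053 for Mcm3, 1.27 for Mcm4, 0.41 for Mcm6, 0.90 for Mcm7, 2.08 for Gmnn and 1.66 for Pcna, and null MII against GV gave 0.77 for Mcm4, 0.32 for Mcm6, 1.25 for Mcm7, 0.95 for Gmnn and 1.39 for Pcna. For null GV against growing, Cdc6 gave 0.0076 and 0.12 under the same scalings, and for the interaction of MII with GV median scaling gave −0.81 for Mcm3, −0.49 for Mcm4 and −0.094 for Mcm6. Each scaling changes the library totals by construction.

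The number of members called in null against WT growing oocytes (2) was 1 with a pseudocount of 0.1 FPKM and 1 with no filter on low values. At GV it (2) was 4 with averaged factors and 1 with the 4 libraries alone. At MII it (4) was 1 with no filter. For WT GV against growing (5) it was 0 without ERCC scaling, 0 under median scaling, 3 with a pseudocount of 0.1 FPKM, 2 with no filter and 3 with the 4 libraries alone. For null GV against growing (9) it was 1 without ERCC scaling and 1 under median scaling. For the interaction of MII with GV (4) it was 2 without ERCC scaling, and 0 higher and 4 lower under median scaling. For the interaction of GV with growing (0) it was 1 with averaged factors (Gmnn). The cause was not tested for the alternatives other than the scalings. Leaving out each library in turn gave 1 to 2 members called in growing, 2 to 3 at GV, 1 to 4 at MII, 8 to 10 for WT and 6 to 7 for null maturation, 0 to 5 for WT and 6 to 9 for null growth, 1 to 4 for the interaction of MII with GV and 0 to 1 for that of GV with growing. A lone library was then assumed to vary like the other groups.

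Same-numbered libraries deviated together weakly at most (correlations of −0.117 to 0.163, 4 of 15 pairs of groups over 0.1), so the main fit did not take the numbers as pairs. The ERCC scaling did link libraries by number. Both WT growing libraries had a factor of 1 although the study lists unequal ERCC shares for them, so replicates 1 and 2 were not put on a common scale. With the replicate block the counts were 2 in growing, 3 at GV, 4 at MII, 10 and 7 for WT and null maturation, 6 and 9 for WT and null growth, and 4 and 1 for the interactions. The interactions could not be fitted to 4 libraries alone. No counts are given, so the reads behind Cdc6, Mcm3 and Mcm5 at MII, where 1 scaled FPKM stood for up to 4.45 FPKM before scaling, are unknown.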
